A study of Mus musculus with 23 samples.

Results

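Of the 23 hippocampal libraries, 5 were selected on their summed FPKM, the sum of the FPKM values of all genes in a library, which was at least 360000 in them and lower in the other 18. FPKM, the number of fragments on a gene scaled to its transcript length in kilobases and to all mapped fragments, is a level already divided by length, so summed FPKM is not fixed and becomes larger, by its arithmetic, when more of the fragments lie on short transcripts. The libraries came from the hippocampus of wild-type male C57BL/6J mice, 6 weeks old when acquired and fed the liquid AIN93M diet for 16 weeks. Ctrl mice (n = 9) received the control diet with vehicle (CMC-Na) by gavage, EtOH mice (n = 7) the ethanol diet with vehicle, and EtOH-UA mice (n = 7) the ethanol diet with urolithin A, a gut microbial metabolite of ellagitannins, at 200 mg/kg per day. The high-sum set held 2 of 9 Ctrl, 1 of 7 EtOH and 2 of 7 EtOH-UA libraries, so it crossed all diets. Libraries are named by diet and by the mouse number of the data table.

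Ribosomal proteins, respiratory chain subunits and proteasome subunits are small proteins made from short, abundant messenger RNAs in every cell. Voltage-gated channels, synaptic scaffolds and chromatin regulators are large proteins made from long messenger RNAs, many of which are prominent in neurons. In bulk tissue fewer cells of a type and less RNA per cell cannot be told apart.

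Summed FPKM was 360354 in Ctrl mouse 200, 361354 in Ctrl mouse 135, 366930 in EtOH mouse 189, 379518 in EtOH-UA mouse 141 and 404609 in EtOH-UA mouse 137. In the other 18 libraries it ran from 327896 over a median of 335896 to 358381. The library just outside the limit was Ctrl mouse 203 at 358381 and the libraries just inside it were Ctrl mice 200 and 135, so the limit fell within a narrow run of Ctrl values and not in a gap. The mean sum was 374553 ± 18452 (SD, n = 5) in the high-sum set and 337328 ± 7327 (SD, n = 18) in the rest, a difference of 37225 FPKM or 11.0%. All high-against-rest values that follow describe libraries chosen by this sum, into which every gene enters, and carry no test. The number of genes above 0 was 16996 to 17264 in the high-sum libraries and 17077 to 17413 in the rest, and the number of fragments sequenced per library was not given in the sources used here.

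The tissue label was compared with its markers. Snap25, a presynaptic SNARE protein of neurons, stood at 1054 to 1160 FPKM in the high-sum libraries and 981 to 1254 in the rest. The 13 hippocampal subfield markers summed to 315 to 434 FPKM in the high-sum libraries and 299 to 396 in the rest. Prox1, the homeobox gene of dentate granule cells, was present in every library, at 7.88 to 17.2 FPKM in the high-sum set and 5.66 to 23.2 in the rest. Neuronal and hippocampal markers were therefore measured in both sets at overlapping levels.

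**Figure D1:**
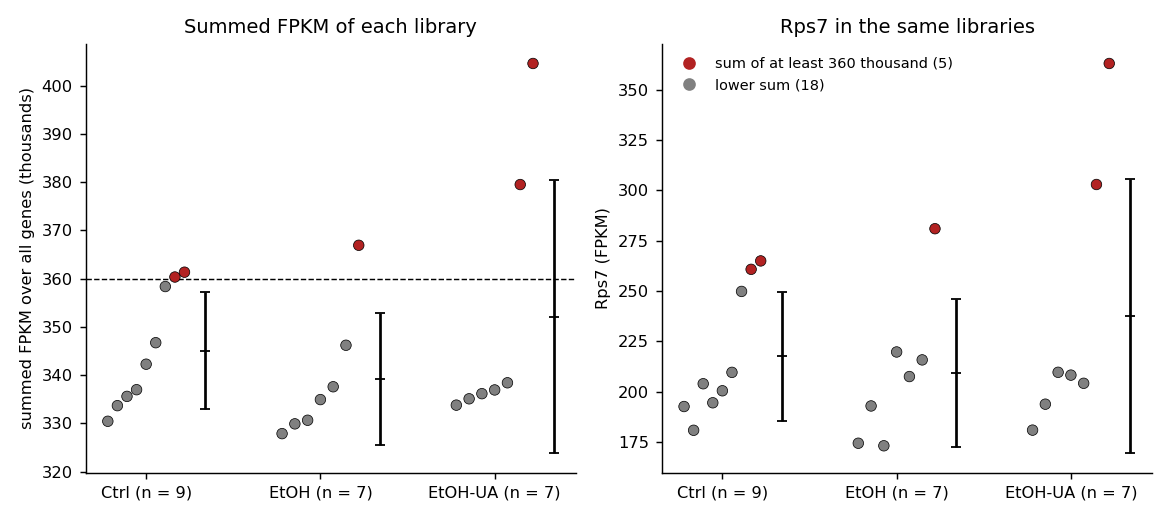
Summed FPKM (left, axis in kilo-FPKM) and Rps7 level (right, in FPKM) of each library, by diet; points are libraries ordered by sum within a diet, the dashed line is the limit of 360000, and bars give the mean and SD of the diet. The 5 high-sum libraries, in red, held Rps7 at 261 to 363 FPKM and the 18 others at 173 to 250. The vertical axes do not start at 0.

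Rps7 (gene ID 20115, chromosome 12, 28630847 to 28635953, GRCm38), a protein of the small ribosomal subunit, stood at 261 FPKM in Ctrl mouse 200, 265 in Ctrl mouse 135, 281 in EtOH mouse 189, 303 in EtOH-UA mouse 141 and 363 in EtOH-UA mouse 137. In the other libraries it ran from 173 over a median of 202 to 250, the highest being Ctrl mouse 203. All 5 high-sum libraries lay above every other library, and the order of the 5 by Rps7 was their order by summed FPKM. The difference on the log2(FPKM + 0.1) scale, with diet as a covariate, was 0.54 (SE 0.07, n = 5 and 18). It was 0.39 with each library divided by its sum and 0.24 with quantile normalization.

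Over the 12904 genes that averaged 1 FPKM or more, the same difference had a median of 0.02. Of these genes 90% lay between -0.37 and 0.42, and 6955 (53.9%) lay above 0. The difference was at least 0.5 for 294 genes (2.28% of those measured) and at most -0.5 for 260 genes (2.01%). Every high-sum library lay above every other library for 702 genes (5.44%) and below every other library for 244 genes (1.89%). These shares are a background for the members described here, and since the sum chose the libraries nothing is read from them. Without EtOH-UA mouse 137, the library with the largest sum, 133 genes reached 0.5 and 239 genes reached -0.5. With each library divided by its summed FPKM, which lowers every gene of the high-sum set, the median over all genes became -0.12. The counts became 36 higher and 741 lower, and 4047 of the 12904 genes lay above 0. With quantile normalization 6417 of them lay above 0.

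The largest differences with no overlap between the sets belonged, on the higher side, to genes whose longest annotated transcripts have 827 to 2657 bases. Dpm3, a subunit that anchors dolichol-phosphate mannose synthase, was at 15.9, 13.7, 15.2, 17.4 and 23.9 FPKM in the high-sum libraries, in the order of their sums. It ran from 6.10 over 9.23 to 12.1 in the rest, a difference of 0.83 (SE 0.13). Rps19, of the small ribosomal subunit, stood at 272, 252, 263, 306 and 372 FPKM against 132 to 243 in the rest, a difference of 0.71 (SE 0.11). Both genes were thus higher in each of the 5 than in any of the 18. The other genes of this side were 1110065P20Rik (0.74), the ribosomal protein gene Rps14 (0.70), the ribosome-associated Ccdc124 (0.68), the centrosomal phosphatase regulator Ppp1r35 (0.68), the mitochondrial import chaperone Timm13 (0.67) and the ATP synthase subunit gene Atp5j2 (0.67).

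On the lower side stood genes whose longest annotated transcripts have 2767 to 14644 bases. By the median length of a gene's annotated transcripts the sides overlapped. Kctd16 of the lower side has 757 bases by that measure and Ccdc124 of the higher side 891.5. Pura, a purine-rich element binding protein of neurons, had 5.28 to 6.03 FPKM in the high-sum libraries and 6.17 to 21.0 in the rest (difference -0.92, SE 0.28), and the rest spread over a wider range than the high-sum set. Scai, a suppressor of SRF-dependent transcription, was at 7.76, 6.73, 5.87, 7.09 and 6.05 FPKM in the high-sum libraries by sum and ran from 7.94 over 11.0 to 14.6 in the rest. Its difference was -0.69 (SE 0.12), and its longest annotated transcript has 10709 bases. Mmp16, a membrane-bound matrix metalloproteinase, Ubn2, the synapsin gene Syn3 and Kctd16, an auxiliary subunit of GABA-B receptors, each differed by -0.65. Lmbrd2 differed by -0.62 and the monocarboxylate transporter gene Slc16a7 by -0.61.

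The cytosolic ribosomal proteins were the list with the most members. All 83 were measured and all 83 were higher in the high-sum set, with a median difference of 0.51 and a range of 0.13 to 0.71, where the median over all genes was 0.02. Most short genes were higher too: of all 1320 genes with a longest transcript under 1500 bases, 1176 were above 0. Of the 83, 42 reached 0.5 and 34 had every high-sum library above every other. With each library divided by its sum 82 of 83 remained above 0, the exception being Rps6, at -0.02, and the median was 0.36. With quantile normalization 83 of 83 were above 0, with a median of 0.26. Together they added 6854 FPKM to the mean sum, 18.4% of its difference. Their summed level was 20320, 19729, 20313, 22756 and 27336 FPKM in the high-sum libraries and 13565 to 19833 in the rest, so the sets overlapped through 1 library, Ctrl mouse 203 at 19833.

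The most abundant members were Rpl3, Rplp1 and Rpl9, all of the large subunit. Rpl9 had 444 to 610 FPKM in the high-sum set and 302 to 431 in the rest (0.51, SE 0.07). Rpl3 had 484 to 659 against 359 to 499 (0.44, SE 0.06) and Rplp1 476 to 678 against 309 to 510 (0.52, SE 0.09), and the sets of these genes overlapped. The smallest difference was that of Rps6, 0.13 (SE 0.13), which was listed at 6.41 to 11.9 FPKM in the high-sum set and 6.10 to 11.4 in the rest, far below its partners in the same subunit. Ribosomal protein genes have many near-identical processed copies in the mouse genome, so how fragments were divided among them is uncertain for single members.

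The mRNAs of ribosomal proteins characteristically begin with a run of pyrimidines at the start of transcription. The start windows of some members are shown because these genes moved together, beside 2 long genes that lay on the lower side; each runs from 30 bases before to 30 bases after the RefSeq start, and the capitals mark CTTTCC or CTTTTC read on the strand of the gene. They are chr12:28635924-28635983 on the minus strand for Rps7, chr7:45718041-45718100 on the plus strand for Rpl18, chr11:114668550-114668609 on the plus strand for Rpl38, chr17:27635215-27635274 on the minus strand for Rps10, chr11:69758604-69758663 on the minus strand for Polr2a and chr2:39190701-39190760 on the minus strand for Scai, all in GRCm38.p6.
Rps7: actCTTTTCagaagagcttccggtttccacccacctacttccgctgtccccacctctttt
Rpl18: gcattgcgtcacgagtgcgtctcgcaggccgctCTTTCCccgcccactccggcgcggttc
Rpl38: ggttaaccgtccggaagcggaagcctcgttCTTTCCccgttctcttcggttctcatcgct
Rps10: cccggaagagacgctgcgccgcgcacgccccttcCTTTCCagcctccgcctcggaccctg
Polr2a: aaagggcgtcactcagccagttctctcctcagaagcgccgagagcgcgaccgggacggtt
Scai: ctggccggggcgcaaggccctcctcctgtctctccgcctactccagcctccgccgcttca
In the 40 bases around the start, CTTTCC or CTTTTC stood in 14 of the 73 start windows of the 62 ribosomal protein genes in the RefSeq table, or 19.2%, against 3.32% of all 32851 windows. On the opposite strand the share was 1.37% of the ribosomal protein windows and 2.97% of all windows. The share was 2.70% for mitochondrial ribosomal proteins and 7.32% for translation factors, and of the 35 windows of chromatin regulators 0 held the letters. Rpl18, Rpl38 and Rps10 were picked for their match, and their differences of 0.58, 0.53 and 0.60 all lay above the list's median. Others with a match near the start lay below it, as Rpl15 at 0.31, Rps27 at 0.36 and Rpl27a at 0.41. Rps7 has its match farther upstream, outside those 40 bases. Polr2a and Scai hold no match in the printed windows, but other genes with a negative difference do. Among these were Tomm70a at -0.06 and Gad2 at -0.27, in windows of the same size.

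Subunits of the respiratory chain, which carries electrons and makes ATP in mitochondria, were higher in the high-sum set. For complex I all 36 measured members were higher, with a median difference of 0.53, and 22 of them reached 0.5. Their summed level was 3294 to 4345 FPKM in the high-sum set and 2260 to 3388 in the rest, so the sets overlapped. Ndufs6, an accessory subunit, had 65.9, 69.0, 63.7, 82.4 and 86.6 FPKM in the high-sum libraries by sum and 37.9 to 66.4 in the rest (0.66, SE 0.09). Ndufs1, the largest core subunit, had 62.3 to 73.5 against 57.4 to 71.2 (0.13, SE 0.04), the smallest difference of the list. After division by the sum Ndufs1 stood at -0.01. Of complexes II to V all 43 measured members were higher (median 0.45, 15 reached 0.5), among them Cox4i1 of cytochrome c oxidase at 629 to 872 FPKM against 415 to 619 (0.57, SE 0.08) and Atp5b of ATP synthase at 632 to 741 against 485 to 639 (0.34, SE 0.05). With quantile normalization 42 of the 43 were above 0, with a median of 0.22. The summed level of the 43 was 8841 to 11316 FPKM against 6408 to 9063, with an overlap. Sdha of succinate dehydrogenase had the smallest difference of this list, 0.23 (SE 0.03).

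The nuclear-encoded proteins of the mitochondrial ribosome showed a smaller shift, with 77 of 77 higher, a median of 0.36 and 7 at 0.5 or more. After division by the sum 73 were above 0, with a median of 0.22. Their summed level was 1778 to 2281 FPKM in the high-sum set and 1378 to 1805 in the rest, with an overlap. Mrps18c led them at 0.63 (SE 0.12) and Mrpl39 closed the list at 0.04 (SE 0.04). Of the 26 mitochondrial import genes, 24 were higher (median 0.37), and 20 after division by the sum (median 0.22). Timm13 had 29.0, 27.1, 27.3, 34.6 and 35.5 FPKM in the high-sum libraries by sum and 14.3 to 23.3 in the rest, without overlap. Tomm70a, an import receptor of the outer membrane, had 60.5, 57.4, 57.5, 67.5 and 67.9 FPKM against 53.4 to 74.2, and the high-sum libraries lay inside the range of the rest. The difference was 0.67 (SE 0.11) for Timm13, whose longest transcript has 1225 bases, and -0.06 (SE 0.07) for Tomm70a, whose longest has 5964. Tomm20, with 4902 bases, stood at -0.01 (SE 0.03).

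Lists of subunits of other complexes, of translation factors and of other small proteins were also higher. Of the proteasome, which degrades ubiquitinated proteins, 37 of 37 measured subunits were higher (median 0.37), from Psmb5 at 0.52 (SE 0.08) to Psmd11 at 0.04 (SE 0.04). The summed level of these subunits was 2423 to 3164 FPKM in the high-sum set and 1928 to 2491 in the rest, with an overlap. Of the Sm and LSm proteins and partners of the spliceosome 25 of 26 were higher (median 0.38), with Lsm7 at 0.64 (SE 0.11), and Snrnp70, whose longest transcript has 4008 bases, at -0.01 (SE 0.05). Of the translation factors 36 of 43 were higher (median 0.24), with Eef1a1, which brings aminoacyl-tRNA to the ribosome, at 1519 to 2035 FPKM against 1214 to 1461 (0.33, SE 0.05). After division by the sum 29 of 43 were above 0 (median 0.10), and with quantile normalization 25 of 43 (median 0.05), where Eef1a1 stood at 0.0045. Eif4g3, a long scaffold of the cap-binding complex, stood at 39.0 to 50.3 FPKM against 49.2 to 55.3 (-0.16, SE 0.04). Of the small actin-sequestering and calcium-binding proteins 33 of 34 were higher (median 0.30), including Tmsb4x, thymosin beta 4, at 1364 to 1808 FPKM against 990 to 1448. After division by the sum 27 of the 34 small proteins were above 0 (median 0.15), and with quantile normalization 22 (median 0.09). The proteasome median was 0.23 under both scalings, with 35 of 37 above 0, and that of the Sm and LSm proteins was 0.24 after division by the sum, with 24 of 26 above 0.

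RNA polymerase II, which transcribes messenger RNA, held members on both sides. Of its 12 subunits 11 were higher in the high-sum set, with a median of 0.38, and 10 after division by the sum, with a median of 0.23. Polr2f, a small subunit shared by the nuclear polymerases, had 29.9, 33.3, 32.9, 42.9 and 41.0 FPKM in the high-sum libraries by sum and 20.5 to 32.2 in the rest (0.51, SE 0.10). Polr2a, the largest catalytic subunit, had 15.1, 14.1, 15.3, 13.4 and 10.4 FPKM against 13.4 to 18.3 (-0.25, SE 0.07). Both encode parts of the same enzyme, and the sets overlapped for both. These 2 genes were the extremes of the list, and their longest transcripts have 1958 and 6740 bases. The 6 subunits with a longest transcript under 1500 bases had a median of 0.42 and the 3 from 1500 to under 3000 bases 0.50. The 3 of at least 3000 bases had 0.00, with 2 of them above 0, so the list did not follow length throughout.

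**Figure D2:**
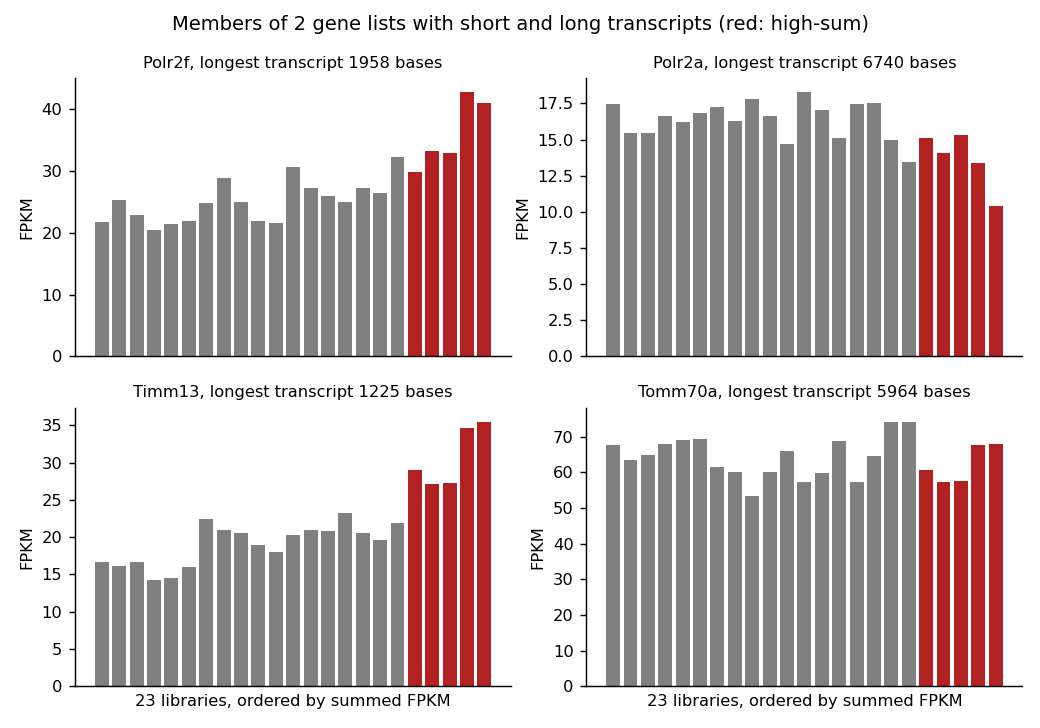
Levels in FPKM (bars from 0) of 4 genes in the 23 libraries, ordered from left to right by summed FPKM; the 5 high-sum libraries are red. The left column shows the members with shorter transcripts, Polr2f and Timm13, whose high-sum bars are the tallest or near it, and the right column their long partners, Polr2a and Tomm70a, whose high-sum bars are level or lower. Each row of the figure shows the members with the highest and the lowest difference of their list.

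Large proteins of the neuron were lower in the high-sum set, as were most long genes. Of all 1976 genes with a longest transcript of at least 6000 bases, 9.06% were above 0. Of the 24 voltage-gated calcium and sodium channel genes 20 were lower, with a median of -0.29. Scn3a, a pore-forming sodium channel subunit, had 7.27, 6.48, 5.81, 5.55 and 5.95 FPKM in the high-sum libraries by sum and ran from 7.40 over 9.19 to 10.3 in the rest, a difference of -0.53 (SE 0.07) without overlap. Of the 35 synaptic scaffolds and cytoskeletal proteins 33 were lower (median -0.22), led by Pclo, the presynaptic scaffold piccolo, at 15.5 to 19.1 FPKM against 18.4 to 29.96 (-0.47, SE 0.09). Dlg4, the postsynaptic density protein PSD-95, was at 0.06 (SE 0.06) and turned to -0.08 with each library divided by its sum.

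Gria2, the AMPA receptor subunit that limits calcium entry, was among the 5 genes that took most FPKM away. It had 144, 154, 147, 138 and 121 FPKM in the high-sum libraries by sum and ran from 169 over 187 to 212 in the rest, with no overlap, and its difference was -0.40 (SE 0.05). Of the 44 chromatin regulators 42 were lower (median -0.30, 6 at -0.5 or less), where 9.06% of all genes with a longest transcript of at least 6000 bases were above 0. Kmt2a, a histone H3 methyltransferase, had 13.1, 12.4, 11.2, 9.28 and 8.03 FPKM against 11.4 to 18.04 (-0.54, SE 0.11), each value lower than the one before in the order of the sums. The abundant remodellers Smarca2 and Smarca4 were the exceptions, at 0.01 (SE 0.03) and 0.03 (SE 0.04), and both lay below 0 with each library divided by its sum.

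Among the large ubiquitin ligases and kinases, all 24 measured genes were lower (median -0.33). Usp9x, a deubiquitinase of this list, had 22.6 to 25.9 FPKM against 26.9 to 37.7 (-0.37, SE 0.07), with no overlap. Huwe1, a ubiquitin ligase, differed by -0.38 (SE 0.10) and the kinase gene Mtor by -0.07 (SE 0.03). Of the 32 large adhesion proteins 31 were lower (median -0.26), from Tenm1 at -0.58 (SE 0.14) to Adgrb2 at 0.03 (SE 0.05). Of the long noncoding RNA list 1 gene was in the table, Snhg11, a neuronal host transcript of small nucleolar RNAs. It had 588, 538, 414, 433 and 317 FPKM in the high-sum libraries by sum and 491 to 619 in the rest, so the 2 Ctrl libraries lay within the range of the rest and the other 3 below it.

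**Figure D3:**
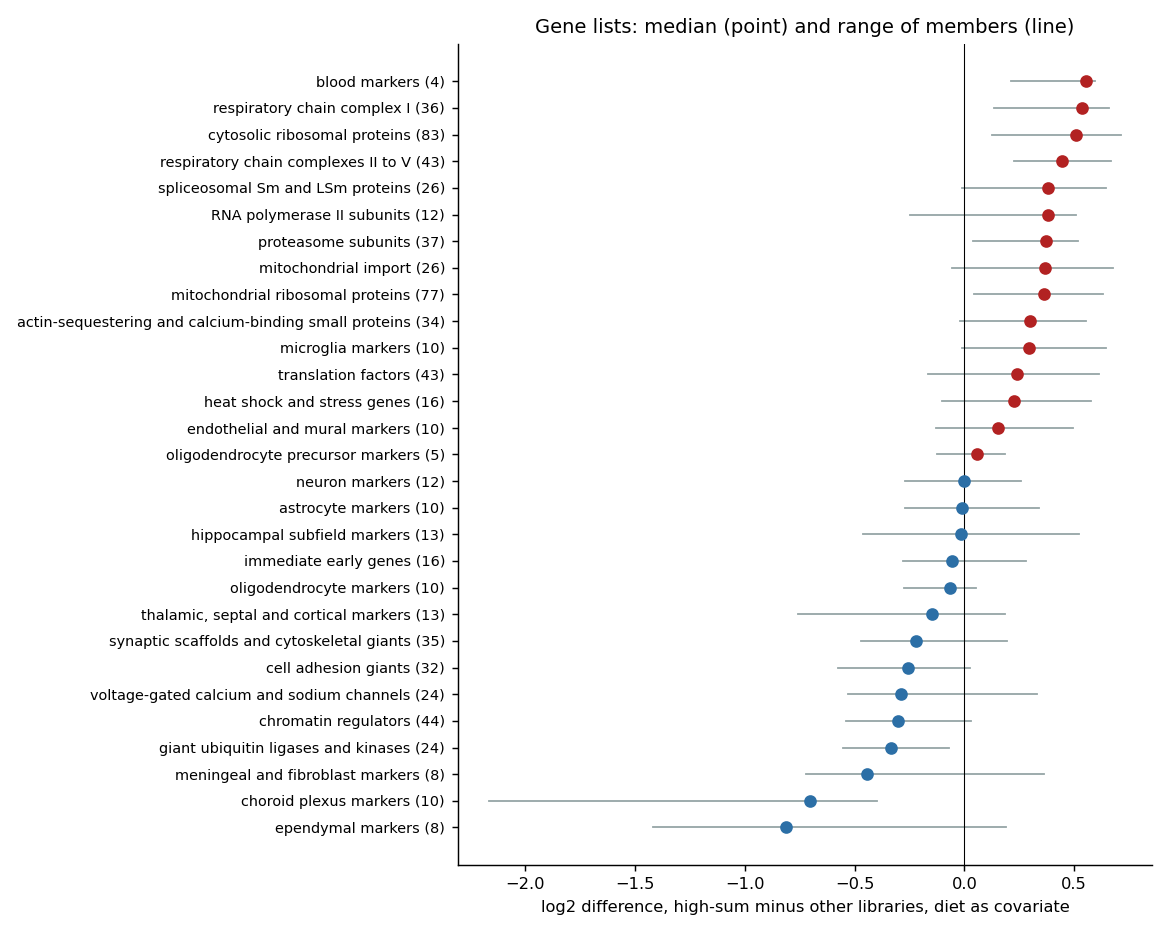
Log2 difference between the high-sum and the other libraries (horizontal axis, diet as a covariate) of 29 gene lists, with the median as a point, the lowest and highest member as the ends of the line, and the number of measured members in brackets. Lists of mostly small proteins and the translation factors, which include large ones, lie to the right of 0, at medians of 0.24 to 0.53. Lists of large proteins lie to the left, at -0.22 to -0.33. Choroid plexus and ependymal lists lie farthest left, at -0.70 and -0.81, with the widest lines.

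Across all genes the difference was ordered by transcript length. Among genes whose annotated transcripts have a median length under 750 bases (2376 genes) the median difference was 0.14, and 71.5% of the genes were above 0. It was 0.12 from 750 to under 1500 bases, -0.02 from there to under 3000, -0.11 from there to under 6000 and -0.26 at 6000 bases or more (216 genes), where 6.94% were above 0. Of the genes under 750 bases 183 reached 0.5 and 33 reached -0.5, and of those of at least 6000 bases the numbers were 0 and 18. After division by the sum the medians of the shorter classes turned to -0.01 (under 750 bases) and -0.03 (750 to under 1500 bases). That of the longest became -0.40, so no class lay above 0. The order was the same, which this division can hardly change, as it scales all genes of a library alike. With the longest transcript of each gene in place of the median the difference ran from 0.40 under 750 bases (206 genes) to -0.23 at 6000 or more (1976 genes). As the libraries were chosen by a sum that grows with the share of short transcripts, this order is not independent of the choice.

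**Figure D4:**
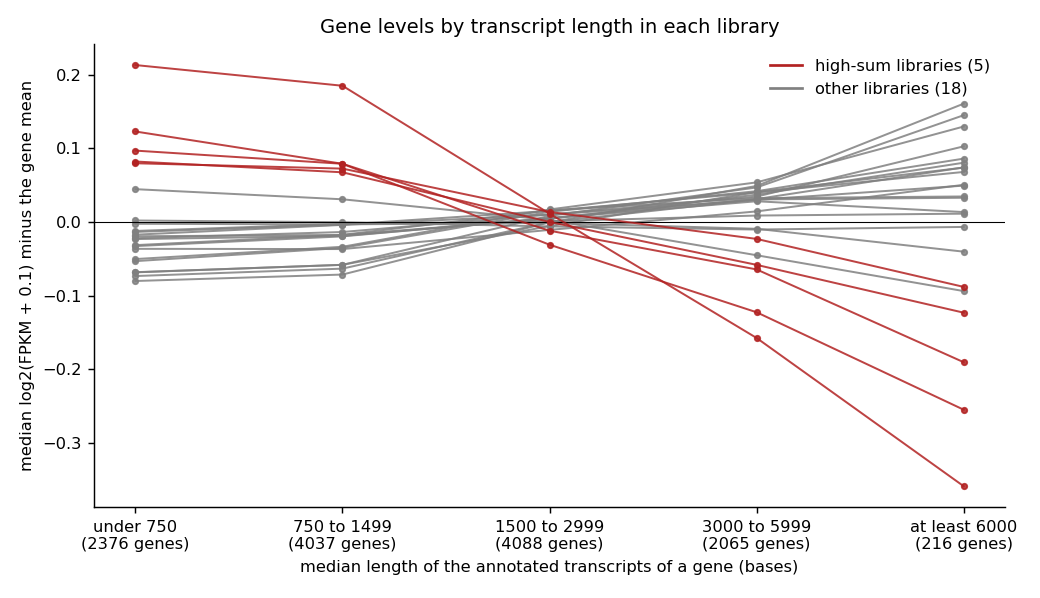
Median of log2(FPKM + 0.1) minus the gene's mean over all libraries (vertical axis), for genes in 5 classes of transcript length in bases (horizontal axis), on the FPKM scale with no division by the sum; each line is a library, red for the 5 high-sum libraries and grey for the 18 others. The red lines start at 0.08 to 0.21 in the shortest class and end at -0.09 to -0.36 in the longest, and among the grey lines that of Ctrl mouse 203 descends most, from 0.04 to -0.09.

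In each library, the median deviation of the shortest class minus that of the longest was 0.17 to 0.57 in the high-sum set and -0.24 to 0.14 in the rest, with no overlap. Ctrl mouse 203 was the highest of the rest at 0.14. On the first principal component, which held 28.3% of the variance, Ctrl mouse 203 lay at 0.19, above Ctrl mouse 200 at 0.18, EtOH mouse 189 at 0.08 and EtOH-UA mouse 137 at 0.11, and Ctrl mouse 138, also of the rest, lay at 0.12. The sum and the first component therefore ordered the libraries differently. Of the FPKM added to the mean sum, 52.0% lay in genes under 750 bases and 47.7% in genes from 750 to under 1500 bases, while genes of at least 3000 bases took some away.

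By the median length of a gene's annotated transcripts, many lists lay far from genes of like length. Ependymal markers, with a median length of 713 bases, had a median difference of -0.81 where the class had 0.14, and choroid plexus markers (1721 bases) had -0.70 where the class had -0.02. Ubiquitin ligases and kinases (2022 bases) had -0.33 and chromatin regulators (2274 bases) -0.30, also against -0.02. By their longest transcripts the members of both lists are far longer, with medians of 12044 and 8950 bases. All 1976 genes with a longest transcript of at least 6000 bases had a median of -0.23, so by that measure both lists lay nearer to genes of like length. The 58 ribosomal protein genes with a longest transcript under 1500 bases had a median of 0.52, where all 1320 genes of that class had 0.34. The 5 ribosomal protein genes whose longest transcript has at least 3000 bases had 0.44, where the 7759 genes of that class had -0.07. For complex I the medians were 0.55 and 0.48. For translation factors they were 0.36 and 0.03 and for mitochondrial import 0.47 and 0.12, nearer to those of all genes of like length. A gene's longest annotated transcript need not be the one expressed, and the expressed isoforms were not resolved here.

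Base composition of the transcripts went with the split as well. In 3 equal classes of genes by GC content, parted at 47.8% and 53.8%, the median difference was -0.09 for low, 0.03 for middle and 0.13 for high GC. Within the class from 1500 to under 3000 bases the medians were -0.09, -0.01 and 0.09 in the same order, and in the other 4 length classes the order was the same. By library, the gap between the high-GC and low-GC genes of that class was 0.07 to 0.24 in the high-sum set and -0.21 to 0.11 in the rest, and the sets overlapped. What part of the differences goes with GC content and what with length was not tested.

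Abundant genes carried most of the difference in the sum. The 584 genes averaging 100 FPKM or more had a median difference of 0.23 and held 67.8% of the added FPKM, and the 3459 genes from 1 to 5 FPKM had -0.05. Next to Ttr, described with the choroid plexus, the genes adding most were Tmsb4x (449 FPKM), the predicted gene Gm20594 (421), Gapdh of glycolysis (392), Apoe, the lipid carrier of astrocytes (391), Eef1a1 (367), ubiquitin Ubb (315), ferritin heavy chain Fth1 (306), cystatin C Cst3 (292) and the selenoprotein Selenow (286). Apoe had 1148, 1221, 1313, 1331 and 1847 FPKM in the high-sum libraries by sum and 879 to 1082 in the rest, without overlap and in the order of the sums. Fth1 turned from 0.26 to -0.21 with quantile normalization, whereas Selenow kept 0.44 of its 0.59. Among the 5 genes taking most away were Snhg11 (-93.2 FPKM), the prostaglandin synthase gene Ptgds (-90.1), the glutamate transporter gene Slc1a2 (-54.5) and Gria2 (-46.2).

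Medians of the marker lists of the principal cell types lay near that of all genes on the FPKM scale, and those of neurons, astrocytes and oligodendrocytes lay below it with quantile normalization. The 12 neuron markers had a median difference of 0.00, 10 astrocyte markers -0.01, 10 oligodendrocyte markers -0.06 and 5 oligodendrocyte precursor markers 0.06, against 0.02 over all genes. With each library divided by its sum all 4 medians lay below 0, the precursors turning to -0.09, as did the median of all genes. With quantile normalization, where the median of all genes was -0.00, they were -0.17 for neurons (1 of 12 above 0), -0.15 for astrocytes (3 of 10), -0.22 for oligodendrocytes (1 of 10) and 0.06 for the precursors (3 of 5). Among the astrocyte markers the 7 with a longest transcript of at least 3000 bases had a median of -0.06 and the 3 shorter ones 0.14, as with Slc1a2 (-0.25, SE 0.08, 11595 bases) and Aldoc, an aldolase (0.34, SE 0.06, 2786 bases). The 16 immediate early genes, which respond to neuronal activity, had a median of -0.06, and of the 16 heat shock and stress genes 15 were higher (median 0.23), with the mitochondrial chaperonin Hspe1 at 0.58 (SE 0.10). After division by the sum 12 of the 16 were above 0 (median 0.08), as were 12 with quantile normalization (median 0.11).

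Microglial markers were higher as a list. Of 10 markers 9 were higher with a median of 0.30, and their summed level was 230 to 282 FPKM in the high-sum set and 177 to 225 in the rest, with no overlap. After division by the sum 7 of 10 were above 0, with a median of 0.15. C1qa, a chain of complement C1q, had 33.3, 37.9, 37.6, 35.0 and 53.1 FPKM in the high-sum libraries by sum and ran from 21.4 over 27.8 to 30.04 in the rest (0.51, SE 0.09). Aif1, which encodes IBA1, was at 5.65 to 7.99 against 2.74 to 5.96 (0.64, SE 0.14), with an overlap. The purinergic receptor gene P2ry12 was at 14.3 to 17.3 against 12.4 to 21.8 (-0.01, SE 0.10). The 4 markers with a longest transcript under 1500 bases had a median of 0.47 and the 3 of at least 3000 bases 0.08, and the part of microglia in the split was not tested. Endothelial and mural markers had a median of 0.15 (6 of 10 higher), with Cldn5 of tight junctions at 0.50 (SE 0.10), and after division by the sum 5 of 10 were above 0 with a median of 0.01. The 4 measured hemoglobin genes were higher (median 0.55), with blood markers summing to 101 to 275 FPKM in the high-sum set and 29.0 to 199.99 in the rest. The 2 alpha-globin genes are near-identical copies of each other, as are the 2 beta-globin genes, so the split of fragments within each pair is uncertain; their SE was 0.32 to 0.41, and their part in the split was not tested.

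Choroid plexus, the secretory tissue in the ventricle beside the hippocampus, was present in very different amounts among the high-sum libraries. Ttr, transthyretin, its most abundant product, had 11.6 FPKM in Ctrl mouse 200, 3.88 in Ctrl mouse 135, 2538 in EtOH mouse 189, 11.3 in EtOH-UA mouse 141 and 7705 in EtOH-UA mouse 137. It ran from 9.03 over 1145 to 5628 in the rest. The high-sum set therefore held both the lowest and the highest Ttr level of all 23 libraries. All 10 choroid plexus markers had a negative difference (median -0.70), while Ttr added 631 FPKM to the mean sum, although its log2 difference was -2.16 (SE 1.67): the arithmetic mean weighs EtOH-UA mouse 137 most, and the log2 scale the 3 libraries with little. The summed level of the markers was 41.6 to 8545 FPKM in the high-sum set and 49.1 to 6628 in the rest. Ependymal markers had a median of -0.81 (5 of 8 at -0.5 or less) and meningeal markers -0.44 (7 of 8 lower), both with overlapping sets. The part of ventricular tissue in the split was not tested.

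Within each diet, ribosomal proteins and complex I had medians above 0 and chromatin regulators below 0, with different sizes. The median of the ribosomal proteins, high-sum minus other libraries of the same diet, was 0.34 for the Ctrl mice (2 and 7 libraries), 0.48 for the EtOH mice (1 and 6) and 0.73 for the EtOH-UA mice (2 and 5). For complex I it was 0.32, 0.44 and 0.76, and for chromatin regulators -0.14, -0.21 and -0.52. The sums of the high-sum libraries differed in the same order between the diets, so size of the sum and diet cannot be told apart here. For microglial markers the medians were 0.30, 0.35 and 0.30. Choroid plexus markers had -2.30 among Ctrl mice, 0.46 among EtOH mice and -0.12 among EtOH-UA mice, so this list had no common direction.

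**Figure D5:**
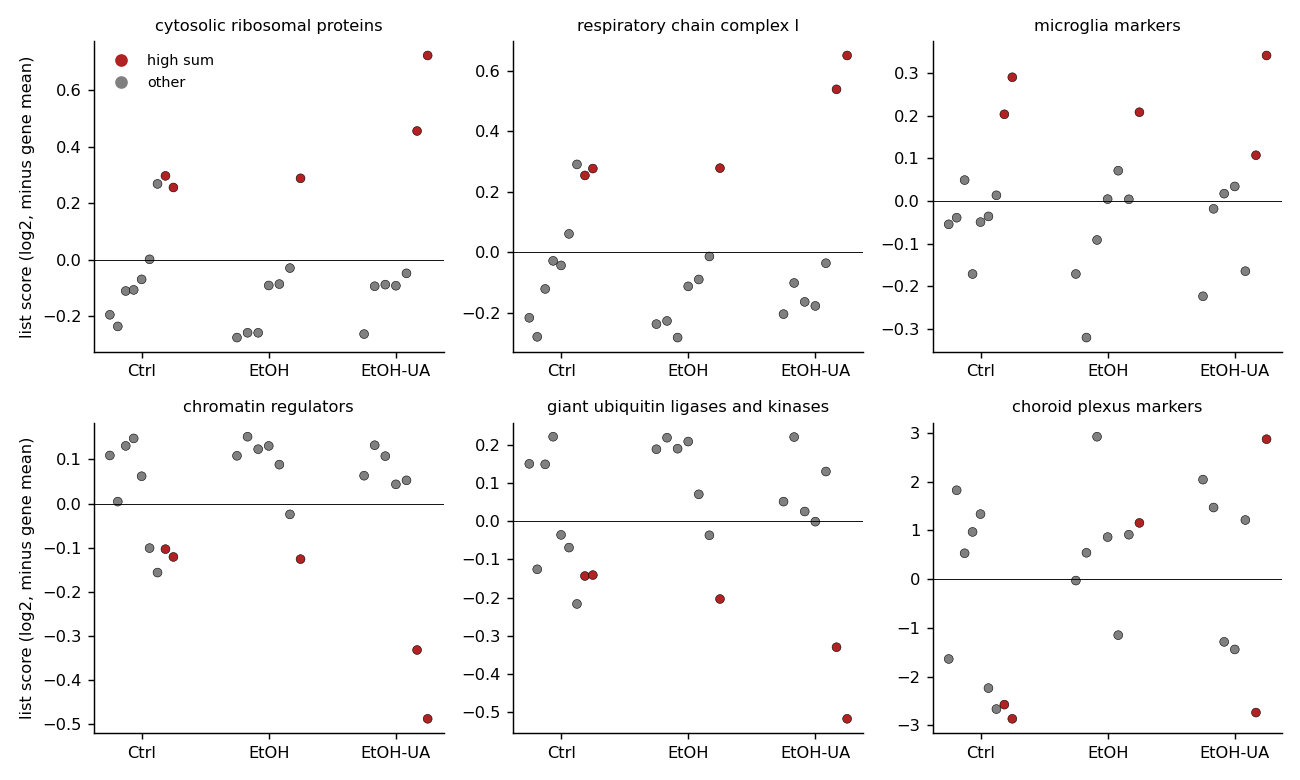
Scores of 6 gene lists in each library by diet (vertical axes differ between panels). The score is the mean over members of log2(FPKM + 0.1) minus the gene's mean over all libraries. Points are libraries ordered by sum, red for the high-sum set. Ribosomal and complex I scores are highest, and ligase and chromatin scores lowest, in the red points of EtOH and EtOH-UA, while in Ctrl the grey point of Ctrl mouse 203 has ligase and chromatin scores of -0.22 and -0.16, below both red points; choroid plexus scores of red points run from -2.87 to 2.87.

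Taken one at a time against the other libraries of their diet, the 5 libraries differed in extent. The ribosomal protein median was 0.36 in Ctrl mouse 200, 0.32 in Ctrl mouse 135, 0.48 in EtOH mouse 189, 0.58 in EtOH-UA mouse 141 and 0.86 in EtOH-UA mouse 137. Genes of at least 6000 bases had medians of -0.13, -0.15, -0.26, -0.32 and -0.45 in the same order. The number of genes at 0.5 or more was 236, 156, 349, 876 and 2005, and the number at -0.5 or less 198, 246, 666, 1007 and 1299. These counts compare single libraries and have no replicate check. EtOH-UA mouse 137 thus held the widest shift in both directions and the Ctrl libraries the narrowest.

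Diet, which played no part in choosing the libraries, was tested with and without the high-sum set. The set without them was cut on a sum into which every gene enters, so its p-values are not independent of that choice. Mean summed FPKM was 345098 ± 12165 (SD, n = 9) for the Ctrl mice, 339170 ± 13695 (SD, n = 7) for the EtOH mice and 352086 ± 28291 (SD, n = 7) for the EtOH-UA mice. By an exact two-sided permutation test no difference in it passed the threshold of 0.05, with p = 0.28 for EtOH-UA against EtOH, 0.37 for EtOH against Ctrl and 0.54 for EtOH-UA against Ctrl (adjusted over 6 tests 0.56, 0.56 and 0.57). The other 3 of the 6 tests, on the difference between the shortest and longest classes, gave p of 0.28, 0.34 and 0.57 in that order (adjusted 0.56, 0.56 and 0.57). These tests were chosen after the values had been seen.

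By gene, limma called 0 of 12904 genes (0%) at an adjusted p under 0.05 in each of the 3 diet comparisons with all 23 libraries, and 0 (0%) in each without the high-sum set. At an unadjusted p under 0.05 it listed 392 genes for EtOH-UA against EtOH, 248 for EtOH against Ctrl and 331 for EtOH-UA against Ctrl, 343, 660 and 474 without the high-sum set, and 451, 342 and 468 with the split as a covariate, which also left 0 genes called. Single libraries moved these counts as far: without EtOH mouse 189 alone they were 1055 for EtOH-UA against EtOH and 661 for EtOH against Ctrl. Without EtOH-UA mouse 139 they were 818 for EtOH-UA against EtOH and 547 for EtOH-UA against Ctrl, and without EtOH-UA mouse 137 they were 204 and 218. EtOH against Ctrl gave 396 without Ctrl mouse 144 and 141 without EtOH mouse 47. Without the high-sum set, leaving out 1 more library gave 418 (Ctrl mouse 203) to 1234 (EtOH mouse 191) for EtOH against Ctrl and 225 (EtOH-UA mouse 142) to 643 (EtOH-UA mouse 139) for EtOH-UA against EtOH. The comparisons share groups and are not independent of each other. The size of the differences moved with the set: the ribosomal protein median was 0.19 for EtOH-UA against EtOH with all libraries and 0.05 without the high-sum set. For EtOH-UA against Ctrl it was 0.08 with all and -0.05 without, and for EtOH against Ctrl -0.11 and -0.10. Rps7 differed by 0.16 (SE 0.14, limma adjusted p = 0.88) between EtOH-UA and EtOH with all libraries and by 0.02 (SE 0.08) without the high-sum set. Chromatin regulators went from -0.13 to -0.02 in the same comparison. The libraries left out were chosen by a sum into which these genes enter, so these changes are not independent of the choice.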

How the data were processed

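Poly(A)+ RNA of 23 hippocampi was sequenced as paired reads. The authors deposited FPKM values per gene for each mouse, made, per the study's methods, by alignment to mm10 (GRCm38) with Bowtie2 and quantification with RSEM (the submitters' processing notes list Bowtie2 2.2.5, RSEM 1.2.8 and HISAT2 2.1.0). Libraries were grouped by the diet in the column names, and 0 columns of values were left unmatched. FPKM is not a count, so no count model was used.

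Summed FPKM was computed per library. Genes averaging 1 FPKM or more were transformed to log2(FPKM + 0.1). The high-sum difference is the least-squares coefficient of the split with diet as a covariate. Diets were compared with limma 3.58.1 in R 4.3.3 (trended variance, Benjamini-Hochberg adjustment) and other values with Python 3.11.15. Transcript lengths and GC content came from GENCODE M21 (99.1% of tested genes matched), and gene positions and start windows from RefSeq GRCm38.p6. In simulated data of 12904 genes with 200 changed by 1 log2 unit, limma recovered 98% for EtOH against Ctrl. The simulated noise was independent between genes and took each gene's spread after removal of diet and of the split. The share is therefore no measure of power in the real data or for smaller changes.

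The members and the 30 gene lists were chosen with earlier results of these data known. Genes were named by rule: Rps7, the 8 genes per direction with the largest non-overlapping difference at a mean of at least 5 FPKM, the 10 adding most and 5 taking most FPKM, and in each list the 3 most abundant members and the extremes. For diets, the 3 genes with the smallest adjusted p in each direction among those past the threshold would be named, and 0 were. Some genes that the rule names are not reported here.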

Additional observations from a re-analysis of the deposited data

Results flagged for a closer look

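In 102 groups of libraries of the same diet (summed FPKM, the gap between the shortest and longest length classes, Rps7, genes above 0 and each list score), 3 values stood far from the others by Dixon's criterion. Chance gives about 1 in 20 groups, and 3 in 102 is no more than that. The groups share libraries and are not separate checks. The blood marker score was far below the other Ctrl libraries in Ctrl mouse 144, at -1.69, and far below the other EtOH libraries in EtOH mouse 195, at -2.12. The neuron marker score of EtOH-UA mouse 141, a high-sum library, was 0.13, above the other EtOH-UA libraries.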

How the results depend on the processing

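The Rps7 difference stayed above 0 and the shortest length class above the longest under every alternative run for them. Their sizes and the counts changed. Division by the sum and upper-quartile scaling act alike on all genes of a library, so they could hardly change the order of the length classes. As the libraries were chosen by their sum, these kept directions are not independent of the choice. Genes higher in the high-sum set numbered 294, with 36 after division by the summed FPKM, 142 with upper-quartile scaling and 146 with quantile normalization. Genes lower numbered 260, with 80 at a pseudocount of 1, 564 at a mean of at least 0.1 FPKM, 108 at a mean of at least 5 FPKM and 741 after division by the sum. The Rps7 difference was 0.54, with 0.39 after division by the sum and 0.24 with quantile normalization. The difference between the shortest and longest classes was 0.40, with 0.63 by the longest transcript. The choroid plexus median of -0.70 reversed within EtOH, to 0.46. Leaving out each library in turn gave 133 to 422 genes higher (133 without EtOH-UA mouse 137), 215 to 350 lower, 0.34 to 0.44 for the length classes and 0.47 to 0.58 for Rps7. The diet comparisons kept 0 calls in limma except that EtOH against Ctrl gave 0 to 1, the 1 being LOC115488002 without Ctrl mouse 203, a gene named after its value was seen. The other alternatives of the diet comparisons, with and without the high-sum set, gave 0 calls. No paired analysis was possible because the columns carry mouse numbers, not the replicate numbers of the labels. Depth per library is unknown, so no counting error could be given, and 5 libraries limit every description of the high-sum set.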
